A study of Mus musculus with 2 samples.

Results

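Adiponectin (Adipoq), leptin (Lep), resistin (Retn), adipsin (Cfd), Fabp4, Car3, Lpl, Gpihbp1, Cd36 and Angptl4 were taken by symbol as 10 genes that fat cells are known for, as hormones they secrete or as proteins of fatty acid uptake. They are 10 of the 55536 annotated genes of the tables, and all 10 were matched. Total RNA was sequenced from the adrenal gland of 10-day-old B6CASTF1/J females, mice that are a cross of the strains C57BL/6J and CAST/EiJ. The series holds 1 group of 2 libraries, replicate 1 and replicate 2, with no treatment and no second genotype. Library preparation was directional and started from 300 ng of RNA, with ribosomal RNA reduced and ERCC spike-ins added. The labels give the libraries different biological replicate numbers, and the tissue entries name a different female for each, but the sample descriptions repeat 1 female for both. Separate animals are thus not certain, so the SDs describe the spread of these samples alone, and that spread may be technical. All p-values hold for these samples alone, and those of the exact binomial test used below cover counting error only.

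The gene tables held 35287787 expected counts in replicate 1 and 33068243 in replicate 2, and 14179 genes reached 1 TPM (a level per transcript length) in both. The labelled tissue was checked against its defining markers: all 7 adrenal cortex markers and all 6 chromaffin cell markers reached 1 TPM in both libraries, with summed levels of 3838 and 4141 TPM for the cortex and 1042 and 1008 TPM for chromaffin cells in replicates 1 and 2. Markers of neighbouring organs set the libraries apart. The 8 liver markers summed to 5895 TPM in replicate 1 and 1135 TPM in replicate 2, and the 11 skeletal muscle markers to 3705 and 1197 TPM. The 10 kidney markers summed to 0.98 TPM in replicate 1 and 230.6 TPM in replicate 2, and Nphs1 and Slc22a6 of that list had 0 counts in replicate 1.

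Fat cells store triglyceride and also act as an endocrine tissue. Circulating lipoproteins are hydrolysed on the capillary wall by lipoprotein lipase (Lpl), which the endothelial protein Gpihbp1 carries across the capillary cell and anchors in the lumen. Angptl4 inactivates the lipase, Cd36 helps the released fatty acids into the cell, and Fabp4 binds them in the cytosol. The adrenal gland lies in a fat depot that is brown fat in young rodents, and adrenal cortex cells themselves take up lipoprotein lipid for steroid synthesis. In bulk RNA, more cells of a type and more RNA per cell cannot be told apart.

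All 10 genes were detected at 1 TPM or more in both libraries. Among these, 8 reached 10 TPM and 6 reached 100 TPM in both. The order of mean levels was Fabp4, Car3, Cd36, Lpl, Adipoq, Cfd, Angptl4, Gpihbp1, Retn and Lep. Neighbours in that order did not overlap between libraries, except Retn and Lep, whose order was opposite in replicate 1 and replicate 2. Together the genes made up 3130 TPM in replicate 1 and 3668 TPM in replicate 2, which was 0.92% and 1.12% of the TPM of nuclear protein-coding genes. Fabp4 alone supplied 49% of the sum in replicate 1 and 52.4% in replicate 2.

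**Figure D1:**
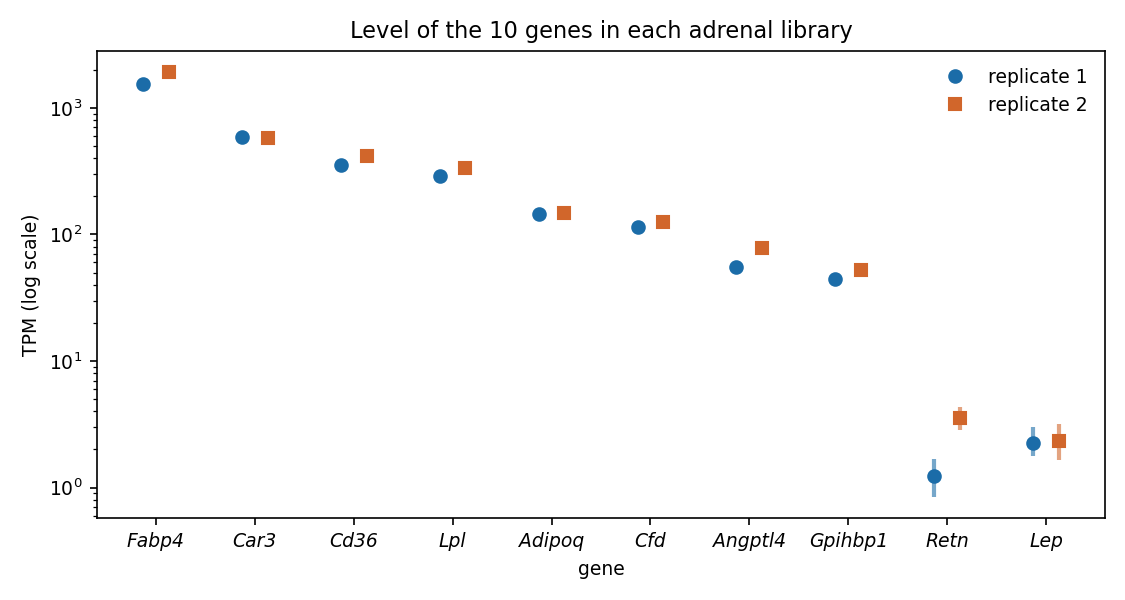
TPM of each gene (log axis) in replicate 1 (circles) and replicate 2 (squares), with the credibility intervals deposited with the values as vertical bars. The genes span from 1728 TPM for Fabp4 to about 2 TPM for Retn and Lep, and Retn is the gene whose libraries lie farthest apart.

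The hormones fell into an abundant pair and a scarce pair. Adiponectin, a hormone of the C1q/TNF family that raises insulin sensitivity, stood at 146 TPM in replicate 1 and 148 TPM in replicate 2 (mean 147 ± 1.55, SD, n = 2). Adipsin, the serine protease that cleaves factor B in the alternative complement pathway, stood at 115 and 126 TPM (121 ± 8.2, SD, n = 2). Both lie near the top of the gene list, at rank 350 and rank 427 of nuclear protein-coding genes by mean TPM. Leptin, the satiety hormone, stood at 2.25 TPM in replicate 1 and 2.33 TPM in replicate 2 (2.29 ± 0.0566, SD, n = 2). Resistin, a cysteine-rich hormone that fat cells secrete in mice, stood at 1.23 and 3.57 TPM (2.40 ± 1.65, SD, n = 2). Leptin and resistin were at rank 11596 and rank 11478, and adiponectin mRNA was 64.3-fold above leptin mRNA per length (log2 ratio of Lep to Adipoq -6.02 and -5.99). That ratio differed between the libraries by far less than its size. The ratio of Retn to Lep was -0.87 on the log2 scale in replicate 1 and 0.62 in replicate 2, so their order was not resolved.

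The RefSeq table of promoters (build GRCm38.p6) held 5 of the 10 genes: Adipoq, Lep, Retn, Cfd and Cd36. Fabp4, Car3, Lpl, Gpihbp1 and Angptl4 had no entry. The 250 bases before the start of the hormone genes are shown because these genes share a cell type as their textbook source and differ widely in level here. Capitals mark matches, on either strand, to TTGCGCAA (the palindromic C/EBP consensus), AGGTCA (the nuclear receptor half-site, also part of PPAR sites), CCAAT (the site named for these letters), the GC box word GGGCGG, the core promoter word TATAAA and the E-box word CACGTG. These matches did not overlap one another.
Adipoq, chr16:23146286-23146535, plus strand: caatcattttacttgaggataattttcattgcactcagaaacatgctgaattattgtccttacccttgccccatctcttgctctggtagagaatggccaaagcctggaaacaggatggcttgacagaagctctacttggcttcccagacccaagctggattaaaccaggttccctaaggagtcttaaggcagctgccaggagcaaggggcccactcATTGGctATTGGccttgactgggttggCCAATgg
Lep, chr6:29059971-29060220, plus strand: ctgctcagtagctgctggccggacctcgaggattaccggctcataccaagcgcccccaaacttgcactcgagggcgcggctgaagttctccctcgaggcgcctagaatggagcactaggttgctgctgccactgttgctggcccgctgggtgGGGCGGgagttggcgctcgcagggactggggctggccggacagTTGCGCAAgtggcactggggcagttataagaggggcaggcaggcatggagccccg
Cfd, chr10:79890603-79890852, plus strand: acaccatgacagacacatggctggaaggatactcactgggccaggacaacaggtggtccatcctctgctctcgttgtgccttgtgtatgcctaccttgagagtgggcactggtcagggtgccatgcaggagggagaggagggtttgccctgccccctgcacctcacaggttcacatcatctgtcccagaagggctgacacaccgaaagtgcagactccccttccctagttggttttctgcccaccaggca
Retn, chr8:3655520-3655769, plus strand: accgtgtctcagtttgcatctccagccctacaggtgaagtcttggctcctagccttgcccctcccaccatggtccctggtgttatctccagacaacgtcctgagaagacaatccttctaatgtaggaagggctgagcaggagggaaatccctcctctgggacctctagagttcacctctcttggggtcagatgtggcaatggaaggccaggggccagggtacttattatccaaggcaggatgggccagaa
The Lep window held 1 TTGCGCAA match from base -55 to base -48 before the start, and 0.164% of 32851 RefSeq promoter windows of this length held one. It also held 1 GGGCGG match, 16 CpG pairs and a GC content of 65.6%, against medians of 6 CpG pairs and 52.4% GC over all windows. The Adipoq window held 3 CCAAT matches within 34 bases of the start and no CpG pair, and CCAAT was in 33.8% of all windows. The Cfd and Retn windows held none of the 6 words and 2 CpG pairs each. Cd36 held 1 AGGTCA, 1 CCAAT and 2 GGGCGG matches in the window before base 17835896 on the minus strand, and AGGTCA was in 14% and GGGCGG in 32.7% of all windows. Cd36 has annotated first exons at 3 places, and this window lies nearest to the one at 17835717, whose share is given below. The words TATAAA and CACGTG, in 12.4% and 6.02% of all windows, were in none of the 5, and neither was an AGGTCA direct repeat with 1 base between, which was in 0.0335%. A match describes letters and shows no binding.

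Fabp4 and Car3 were the most abundant of the 10. Fabp4, the cytosolic fatty acid carrier of fat cells and of some capillaries and macrophages, stood at 1535 TPM in replicate 1 and 1922 TPM in replicate 2 (1728 ± 274, SD, n = 2). It was the gene at rank 4 of all nuclear protein-coding genes by mean TPM. Car3, a cytosolic carbonic anhydrase abundant in fat, skeletal muscle and liver, stood at 586 and 582 TPM (584 ± 2.49, SD, n = 2), at rank 36. The libraries were thus nearly level for Car3 and apart for Fabp4, with replicate 2 higher. Per length, Fabp4 exceeded Adipoq by 3.39 on the log2 scale in replicate 1 and 3.7 in replicate 2. Car3 exceeded Adipoq by 2 and 1.97. Car3 set against the muscle actin Acta1 changed sides, at -1.03 in replicate 1 and 0.83 in replicate 2, with Acta1 at 1194 and 328 TPM. The skeletal muscle list had log2 ratios from -3.41 to 3.36 between the libraries, and the part of muscle and liver RNA in the Car3 level was not tested.

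The genes of lipoprotein hydrolysis were all clearly expressed, the enzyme more than its anchor or its inhibitor. Lpl stood at 289 TPM in replicate 1 and 337 TPM in replicate 2 (313 ± 34.2, SD, n = 2). Gpihbp1 stood at 44.8 and 52.2 TPM (48.5 ± 5.25, SD, n = 2). Replicate 2 was higher for both, and the log2 ratio of Gpihbp1 to Lpl was -2.69 in each library, a 6.45-fold lower level of the anchor per length. Gpihbp1 was level with the endothelial adhesion protein Pecam1, at a log2 ratio of -0.11 in replicate 1 and 0.04 in replicate 2. Angptl4 stood at 55.6 TPM in replicate 1 and 77.7 TPM in replicate 2 (66.6 ± 15.7, SD, n = 2), and 4.75-fold below Lpl on average. Cd36, the fatty acid translocase, stood at 356 and 416 TPM (386 ± 42.2, SD, n = 2). It was above Lpl in both libraries, by 0.30 on the log2 scale in each, and at rank 92 of nuclear protein-coding genes. Cd36 lay below Fabp4 by a mean log2 ratio of -2.16 ± 0.07 (SD, n = 2). Of the 14 ratios between paired genes that were computed, 11 were larger than their spread between the libraries, and the ratios of Retn to Lep, Gpihbp1 to Pecam1 and Car3 to Acta1 were not.

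The libraries were compared gene by gene on counts, with an exact two-sided binomial test against the TMM-scaled library share. The test covers counting error between 2 libraries only, with no replicate check, and a gene was called at a Benjamini-Hochberg adjusted p below 0.05 and at least 2-fold. Resistin was the 1 gene of the 10 called. It had 32 counts in replicate 1 and 87 in replicate 2, a 3.02-fold higher level in replicate 2 (exact 95% interval 2.01 to 4.73, log2 ratio 1.59, adjusted p = 1.19e-07 in the exact binomial test). Among all 18883 genes tested, 6.8% were called and 2.75% were called as higher in replicate 2, so 1 call among 10 does not set these genes apart. With a spread estimated over all genes from these same 2 libraries, the edgeR likelihood ratio test gave Retn an adjusted p of 0.326. That test called none of the 10, with 1 at an unadjusted p below 0.05. Retn had the fewest counts of the 10.

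With no limit on the fold, 9 of the 10 genes differed beyond counting error, each with the higher TMM-scaled count in replicate 2. Of all genes tested, 26.6% did so in either direction. By direction alone, 49.4% of all genes tested were higher in replicate 2, and 35% when total counts set the scale. Apart from Retn, each of those 9 had at least 1127 counts in each library, so small differences exceed counting error. Angptl4 had 3570 and 4668 counts, 1.47-fold higher in replicate 2 (1.40 to 1.53, adjusted p = 2.94e-65 in the exact binomial test). Fabp4 had 42999 and 49809 counts, 1.30-fold higher (1.28 to 1.32). The lipid uptake genes differed by like amounts: Cd36 was 1.23-fold, Lpl 1.21-fold and Gpihbp1 1.18-fold higher. Cfd was 1.15-fold, Adipoq 1.08-fold and Car3 1.04-fold higher in replicate 2. The Car3 ratio changed sign when total counts set the scale (log2 0.05 against -0.02). On that scale Adipoq and Car3 were within counting error (adjusted p = 0.325 and 0.222 in the exact binomial test). Lep, with 203 and 154 counts, was 0.851-fold (0.685 to 1.05, adjusted p = 0.307 in the exact binomial test). The median log2 ratio of the 10 genes was 0.26, from -0.23 to 1.59, and that of all genes tested was -0.003. The median moved with the scale, to 0.18 under total counts, where the median of all genes was -0.074.

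**Figure D2:**
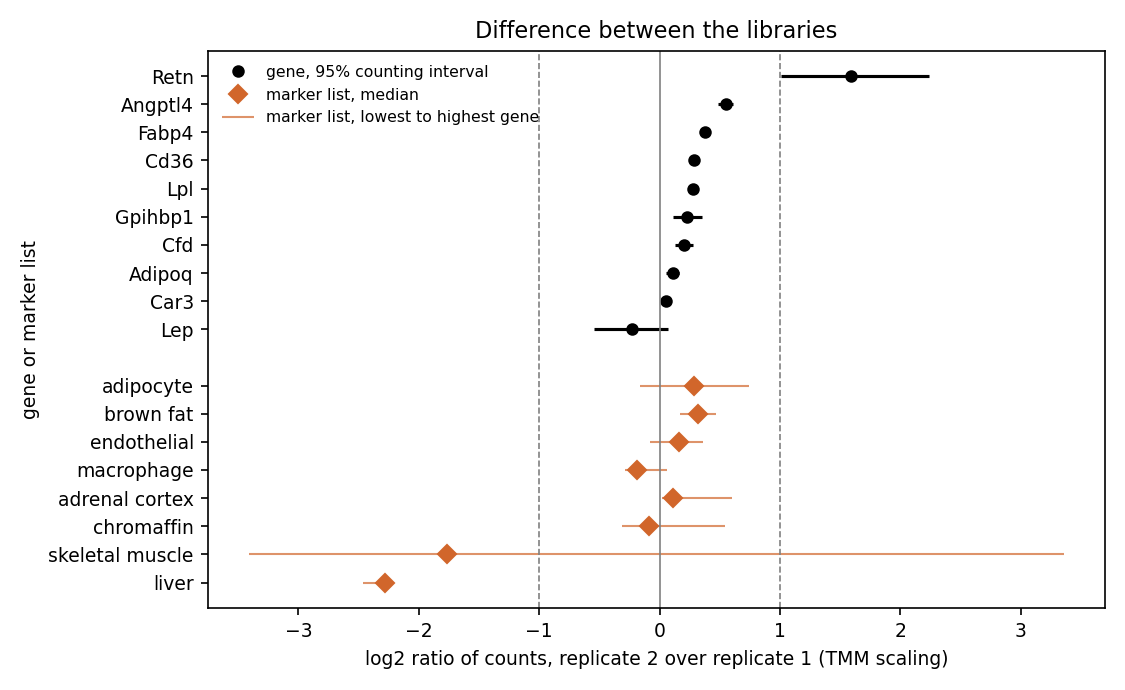
Log2 ratio of scaled counts, replicate 2 over replicate 1, for the 10 genes (black, with exact 95% counting intervals) and for marker lists (orange, median with the lowest and highest gene). Dashed lines mark the 2-fold limit; the genes lie between -0.23 and 1.59, and the list medians are 0.29 for adipocytes, 0.32 for brown fat, 0.16 for endothelium, -0.19 for macrophages, 0.11 for the cortex, -0.09 for chromaffin cells, -1.77 for skeletal muscle and -2.28 for liver. The kidney list, with a median of 8.57, is not drawn.

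Leptin shows how the transcript mix enters a level. Its counts were lower in replicate 2, yet its TPM was not, at 2.25 and 2.33 TPM. The effective length that the gene table assigned to Lep was 2683.74 nt in replicate 1 and 2110.33 nt in replicate 2. The short transcript Lep-202, which begins at another first exon, took 16.8% of the gene's TPM in replicate 1 and 37% in replicate 2. That share rests on 4.07 and 8.66 estimated counts, so the TPM of Lep turns on very few reads.

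Other markers of the fat cell ranged from abundant to scarce, and most adipocyte and brown fat markers were somewhat higher in replicate 2. The lowest adipocyte marker was Adrb3, at 2.38 TPM in replicate 1 and 3.67 TPM in replicate 2. Elovl3 was the lowest brown fat marker, at 2 and 2.34 TPM. Of 12 further genes of fatty acid uptake, 6 were higher in replicate 2, as were 5 of 10 further adipokines tested. The 12 adipocyte markers were all detected, and 11 had the higher count in replicate 2 after scaling, with a median log2 ratio of 0.29 and none called. Their most abundant members were Pnpla2 (adipose triglyceride lipase) at 433 ± 60.5 TPM, Pck1 (phosphoenolpyruvate carboxykinase) at 384 ± 98.3 TPM and Plin1 (the coat protein of the fat droplet) at 305 ± 1.94 TPM (SD, n = 2). Plin1 stood at 306 TPM in replicate 1 and 304 TPM in replicate 2, 2.07-fold above Adipoq. The 7 brown fat markers were also all detected, none called, with a median log2 ratio of 0.32 and every gene higher in replicate 2. Ucp1, the uncoupling protein that makes brown fat produce heat, stood at 978 TPM in replicate 1 and 1302 TPM in replicate 2. Cox8b, a muscle and brown fat subunit of cytochrome oxidase, stood at 1041 ± 84.4 TPM and its partner Cox7a1 at 556 ± 32.2 TPM (SD, n = 2). The brown fat list summed to 3162 and 3763 TPM and the adipocyte list to 1560 and 1885 TPM. Both sums were higher in replicate 2, as was the sum of the 10 genes. The part of the amount of fat, or of RNA from other organs, in either library was not tested.

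Lists of other cell types had smaller medians. The 10 endothelial markers, led by Egfl7, Cdh5 and Rgcc (95.8 ± 6.19, 65.2 ± 3.84 and 56.6 ± 8.3 TPM, SD, n = 2), had a median log2 ratio of 0.16 with none called and 9 of 10 higher in replicate 2. The 8 macrophage markers had a median of -0.19, none called and 2 of 8 higher in replicate 2, and summed to 87.5 and 72.5 TPM. Their most abundant members were Lyz2 at 31.2 ± 5.25, Csf1r at 10.6 ± 1.77 and C1qb at 8.94 ± 1.38 TPM (SD, n = 2). The 7 adrenal cortex markers had a median of 0.11, all 7 higher in replicate 2, and were led by Hsd3b1, Cyp21a1 and Star at 1440 ± 22.5, 831 ± 18.7 and 698 ± 178 TPM (SD, n = 2). The 6 chromaffin markers had a median of -0.09, with 1 of 6 higher in replicate 2, and were led by Chga, Chgb and Pnmt at 331 ± 23.6, 280 ± 20.1 and 175 ± 41.1 TPM. None of either adrenal list was called. Of 8 markers of fat progenitors, 1 was called: Dpp4 stood at 3.13 TPM in replicate 1 and 7.23 TPM in replicate 2. The most abundant progenitor markers were Dlk1, Cd34 and Ly6a at 152 ± 18.1, 41.3 ± 1.05 and 19.3 ± 7.61 TPM. The kidney list was also higher in replicate 2, and the part of kidney RNA in the Dpp4 level was not tested. Nor was the part of adrenal or endothelial cells in the levels of the progenitor list. Platelet markers were scarce, with 2 of 5 detected and Ppbp called lower in replicate 2 (1.45 against 0.36 TPM). Their most abundant members were Pf4 at 8.08 ± 1.3 and Itga2b at 1.63 ± 0.283 TPM.

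The organ lists that set the libraries apart did not share a direction. All 8 liver markers were called lower in replicate 2, with a median log2 ratio of -2.28, led by Alb at 2509 TPM in replicate 1 and 502 TPM in replicate 2. The next liver markers by mean level were Trf, at 1002 and 200 TPM, and Ahsg, at 996 and 173 TPM. Of 11 skeletal muscle markers, 9 were called lower in replicate 2, and 1, the fast myosin Myh4, was called higher (9.4 against 92.7 TPM). After Acta1, the most abundant were the myosin light chain Mylpf at 772 and 274 TPM and the troponin Tnnt3 at 389 and 102 TPM. Ckm, Myh1, Myh2, Myh8, Tnnc2 and Tnni2 were the other muscle markers called lower, and Actn3 was not called. All 10 kidney markers were called higher in replicate 2, led by Slc34a1 (0.14 against 80.8 TPM), Kap (0.2 against 70.2 TPM) and Lrp2 (0.37 against 22.3 TPM). Umod, Slc12a1, Slc12a3 and Aqp2 had 1 to 5 counts in replicate 1. Of the 10 fat cell genes, Retn was called higher in replicate 2, as the kidney markers were, and none was called lower. The part of liver, muscle or kidney RNA in their levels was not tested.

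**Figure D3:**
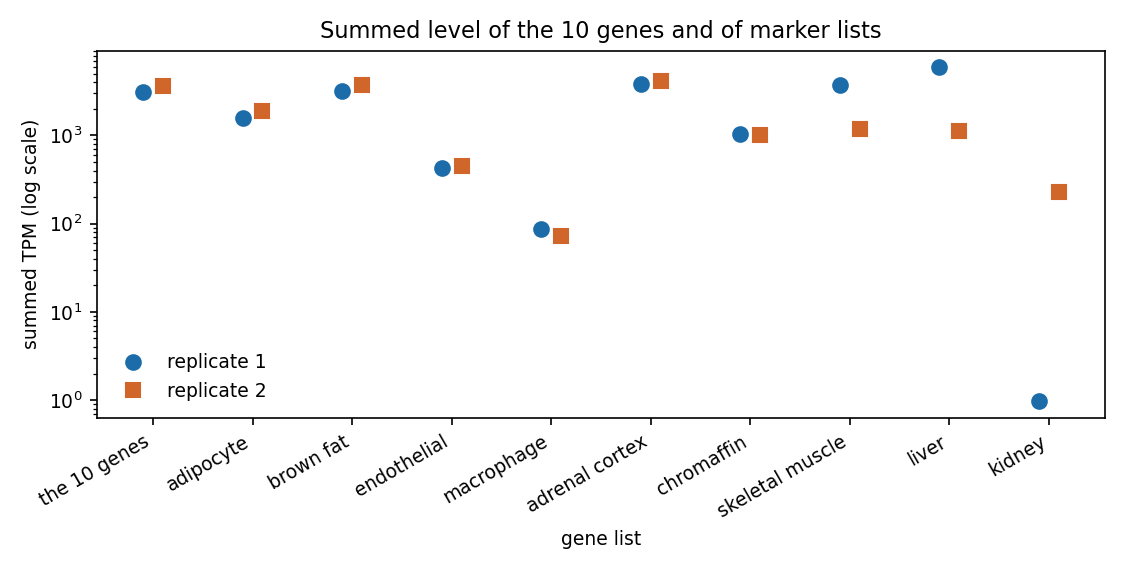
Summed TPM (log axis) of the 10 genes and of each marker list in replicate 1 (circles) and replicate 2 (squares). The 10 genes (3130 and 3668 TPM), the adipocyte and brown fat lists and the adrenal lists lie close together between libraries, and the skeletal muscle, liver and kidney lists do not.

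Receptors and targets of the hormones were present next to low leptin and resistin. The adiponectin receptors Adipor1 and Adipor2 stood at 38.5 ± 0.467 and 70.4 ± 0.17 TPM (SD, n = 2), and the leptin receptor Lepr at 4.55 ± 0.495 TPM. Adipor2 was the second most abundant of the 12 receptors and targets, of which 10 were detected. Complement C3, which the pathway of adipsin activates, stood at 141 TPM in replicate 1 and 60.8 TPM in replicate 2. Factor B (Cfb), the substrate of adipsin, stood at 52 and 18.7 TPM. Both are also made in quantity by the liver and were called lower in replicate 2, as was the receptor C5ar2 (25 and 5 counts), while adipsin itself was 1.15-fold higher. The apelin receptor Aplnr stood at 57.1 ± 2.73 TPM (SD, n = 2). Of 12 further adipokines, 8 were detected and 1 was called, Rbp4, the retinol carrier of liver and fat, at 110 and 33 TPM. Chemerin (Rarres2) stood at 65.4 TPM in replicate 1 and 32.4 TPM in replicate 2 and Nampt at 29.6 and 47.8 TPM. Neither of these passed the 2-fold limit.

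A list of genes that act on lipoprotein lipase or, like its relatives Lipc and Lipg, have a part in lipoprotein handling was mostly detected. Some of its genes differed between the libraries. Of the 12 genes on this list, 11 were detected and 5 were called, all lower in replicate 2, among them Apoc2, Apoc3, Apoa5 and Lipc. These named genes are known chiefly as products of the liver, and the liver markers were lower in the same library; the part of liver RNA in these calls was not tested. The lipase cofactor Apoc2 stood at 17.2 TPM in replicate 1 and 2.1 TPM in replicate 2. Apoc1, the most abundant of the list, stood at 300 and 197 TPM, short of the 2-fold limit. Genes that fold and process the lipase inside the cell were nearly level: Sel1l stood at 40.7 ± 0.537 TPM and Furin at 38.9 ± 2.06 TPM (SD, n = 2). The related endothelial lipase Lipg stood at 0.39 ± 0.0849 TPM (SD, n = 2), with a log2 ratio of Lpl to Lipg of 9.77 in replicate 1 and 9.55 in replicate 2. Of 12 further genes of fatty acid uptake, all were detected and 1 was called, Fabp3, the carrier of heart and muscle, at 139 and 55.7 TPM. Acsl1, which activates fatty acids with coenzyme A, stood at 312 ± 7.24, Cav1, the coat protein of caveolae, at 168 ± 1.54 and Cavin1 at 117 ± 6 TPM (SD, n = 2). The 12 transcription factors of fat cell formation were all detected with none called, and their median log2 ratio was 0.06. Cebpb, Cebpa and Srebf1 led them at 94.7 ± 8.19, 80.9 ± 3 and 54.8 ± 8.93 TPM (SD, n = 2).

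Most of the 10 genes were the most abundant of their family. Fabp4 supplied 85.8% of the TPM of 10 fatty acid binding genes in replicate 1 and 94.6% in replicate 2, and it was 37.1-fold above the skin type carrier Fabp5 on average. Its family members Fabp1, Fabp2 and Fabp3 were called lower in replicate 2. Car3 supplied 91.4% and 87.4% of the TPM of 16 carbonic anhydrases. Behind it came Car4 at 18.6 ± 7.06 and Car2 at 16.8 ± 0.0354 TPM (SD, n = 2), and 5 other members were called between libraries. Car12 (17 and 1258 counts), Car15 and Car5b were higher in replicate 2, and Car1 and Car5a were lower. Lpl supplied 96.4% and 99% of the TPM of 8 lipases, of which Lipc and Pnliprp1 were called lower in replicate 2. Angptl4 led the 7 matched angiopoietin-like genes with 59.1% and 71% of their TPM, ahead of Angptl2 at 21.8 ± 0.0566 TPM. Angptl7 was called higher in replicate 2 at 0.52 and 1.71 TPM. Cd36 stood above Scarb1, the HDL receptor of steroid-making cells, which was at 200 ± 46.5 TPM (SD, n = 2), and above Scarb2 at 26 ± 0.46 TPM. Adipoq held 60.8% and 60.2% of the TPM of 10 C1q/TNF genes, ahead of C1qtnf12 at 45.4 ± 2.57 and C1qtnf6 at 19.5 ± 0.0849 TPM.

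Gpihbp1 and Retn did not lead their families. The related surface proteins Ly6d and Ly6e stood at 118 ± 4.93 and 108 ± 6.65 TPM (SD, n = 2), above Gpihbp1. Retnla, which macrophages and fat tissue express, stood at 4.28 TPM in replicate 1 and 5.82 TPM in replicate 2, above Retn in both. Retnlg stood at 2.16 and 1.68 TPM, above Retn in replicate 1 and below it in replicate 2. Retnlb had 0 counts in either library.

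**Figure D4:**
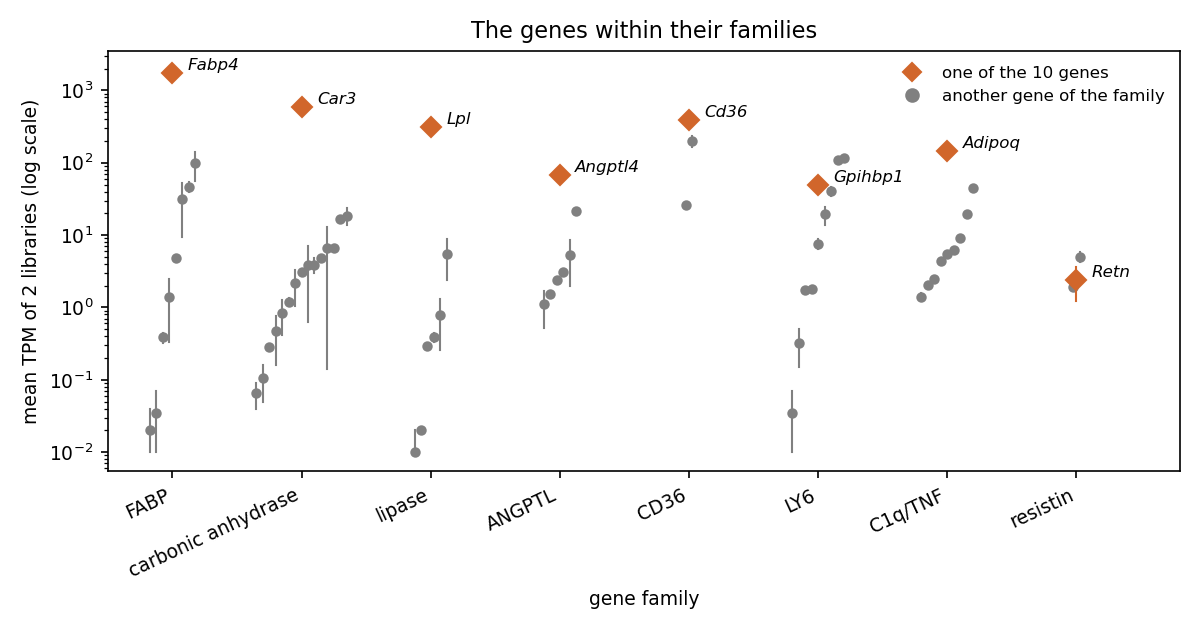
Mean TPM over the 2 libraries (log axis) of each gene of 8 families; diamonds mark the genes described here, grey points their relatives, and thin lines join the values of replicates 1 and 2, drawn at 0.01 where a library is at 0. Genes whose mean is under 0.01 TPM are not drawn. Fabp4, Car3, Lpl, Angptl4, Cd36 and Adipoq lie above every relative, and Gpihbp1 and Retn do not.

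The tables also divide each gene among its annotated transcripts, in the gene table's quantification and in another one. In 9 of the 10 genes a protein-coding transcript took the largest share in both libraries. The exception was Angptl4, on the minus strand of chromosome 17 from 33773750 to 33781830 (mm10). Angptl4-202, annotated as a target of nonsense-mediated decay (the destruction of mRNAs with an early stop codon), took 80.6% of the gene's TPM in replicate 1 and 79.6% in replicate 2. The protein-coding Angptl4-201 took 14.6% and 15.6%. The other quantification also put Angptl4-202 ahead, at 73.2% and 71.1%. In estimated counts Angptl4-202 took less, 74.3% and 72.9%, and 64% and 63.1% in the other quantification. Angptl4-201 took 24.5% and 26% of estimated counts, and 35.2% and 35.9% in the other quantification. Of 11652 detected nuclear protein-coding genes with more than 1 transcript, 1.55% had a target of nonsense-mediated decay as the largest in both libraries. The transcripts differ at the start of exon 3, where Angptl4-202 begins 4 bases later. The junction of exon 2 and exon 3 is shown, with the 4 bases in capitals in Angptl4-201 and the bases on either side of the join in capitals in Angptl4-202.
Angptl4-201: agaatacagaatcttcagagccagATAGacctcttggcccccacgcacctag
Angptl4-202: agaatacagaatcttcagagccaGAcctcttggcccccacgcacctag
Without those 4 bases the reading frame met a stop codon after 154 codons, 582 nt before the last exon junction, and with them it ran for 410 codons. Angptl4-201 is also longer, by 287 nt at its start and 1158 nt at its end, so reads other than those on the junction weigh on the shares too. Whether the shares come from the junction or from the ends was not tested.

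A single codon separates the transcripts of Cfd (chr10:79890853-79892655, plus strand). Cfd-202 begins exon 2 by 3 bases later than Cfd-201 and codes for 258 in place of 259 residues, and its end is 48 nt shorter. The junction of exon 1 and exon 2 is shown in the same way.
Cfd-201: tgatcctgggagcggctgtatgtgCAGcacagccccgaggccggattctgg
Cfd-202: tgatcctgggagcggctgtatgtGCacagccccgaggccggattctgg
In the gene table's quantification Cfd-202 took 18% of the TPM in replicate 1 and 15.5% in replicate 2, and in the other quantification it was listed at 0 in both. The split between these forms was thus set by the quantification and not resolved by these files, and the gene's level changed little (0.952 and 0.986 times the gene table's, relative to nuclear protein-coding genes).

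Adipoq (chr16:23146536-23158028, plus strand) also split by quantification. Adipoq-202 starts in a separate first exon, which follows the end of the first exon of Adipoq-201 after a gap of 4 nt. Its annotated sequence of 539 nt ends after 168 codons without a stop codon, so the end of its protein is not given. It is annotated to code from base 23146680, with 21 codons in frame ahead of the start codon of Adipoq-201 at base 23155225. Those codons are shown, with the start codon of Adipoq-201 in capitals.
Adipoq-202: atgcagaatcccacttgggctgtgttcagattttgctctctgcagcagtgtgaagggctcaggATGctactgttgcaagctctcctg
Adipoq-202 took 10.6% and 7.41% of the gene's TPM in the gene table's quantification and 40.3% and 36.7% in the other. In estimated counts it took 4.17% and 2.87% against 13.2% and 11.4%, and the short transcript raises TPM more than it raises counts. Adipoq was the 1 gene of the 10 whose level was higher in the other quantification, at 1.17 and 1.16 times the gene table's relative to nuclear protein-coding genes, and the other 9 lay at 0.798 to 0.986 times.

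Cd36 (chr5:17781690-17888801, minus strand) has annotated first exons at 3 places, and all 6 of its transcripts are protein-coding. In the gene table's quantification the farthest first exon, with its outer base at 17888801, took 77.8% of the TPM in replicate 1 and 78.9% in replicate 2. The other quantification gave that exon 31.8% and 30.2%, and the middle one, at 17849792, 49.4% and 47.8%. There nearly all of the share of the farthest exon lay in Cd36-205, a short transcript of 702 nt with 427 coding nt. By estimated counts Cd36-205 took 6.84% and 6.37% in that quantification, and 10.4% and 10.1% in the gene table's. The nearest first exon, at 17835717, took 10.3% and 10.2% of the TPM against 18.9% and 21.9%, and it is the one closest to the promoter window searched above. The largest transcript changed with the quantification, from Cd36-203 at 44.4% and 46.1% to Cd36-202 at 44% and 42.4%. Beside the first exon, these transcripts differ by 3 bases at a splice acceptor ahead of the coding sequence. Transcripts with the shorter exon, from base 17828981, took 18.2% and 16.4% in one quantification and 62.8% and 64.3% in the other. Of 11652 detected nuclear protein-coding genes with more than 1 transcript, 66.5% kept 1 largest transcript in both libraries and both quantifications. A further 13.3% had the same one in both libraries but changed it between quantifications. In the rest it differed between the libraries in at least 1 quantification. For Cd36 the replicates were close in every case. The start sites of Cd36 used in this tissue were thus not resolved by these data, while its level was, at 0.858 and 0.851 times the gene table's.

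Lpl and Gpihbp1 kept the same largest transcript in both quantifications. Lpl-201 took 75.4% and 74.8% of the TPM of Lpl (chr8:68880491-68907448, plus strand). Lpl-203, annotated as a target of nonsense-mediated decay, took 22.1% in replicate 1 and 23% in replicate 2, and 20.3% and 20.8% in the other quantification. It codes for the same 474 residues and has a further exon junction 61 nt after the stop codon. Gpihbp1-201, the longest coding form of Gpihbp1 (chr15:75596628-75599481, plus strand), took 82.9% and 75.8%, and 76.1% and 71.2% in the other quantification. Gpihbp1-204 took 5.41% and 11.8%, and 11.3% and 14.8% in the other, and Gpihbp1-203 took 4.52% and 4.54%. The forms join exon 3 to different starts of the next exon, which gives 228, 123 and 111 codons. The junctions are shown with the bases on either side of the join in capitals.
Gpihbp1-201: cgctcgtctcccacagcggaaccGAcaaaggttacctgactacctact
Gpihbp1-204: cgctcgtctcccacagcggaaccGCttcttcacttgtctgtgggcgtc
Gpihbp1-203: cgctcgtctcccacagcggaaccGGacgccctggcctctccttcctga

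**Figure D5:**
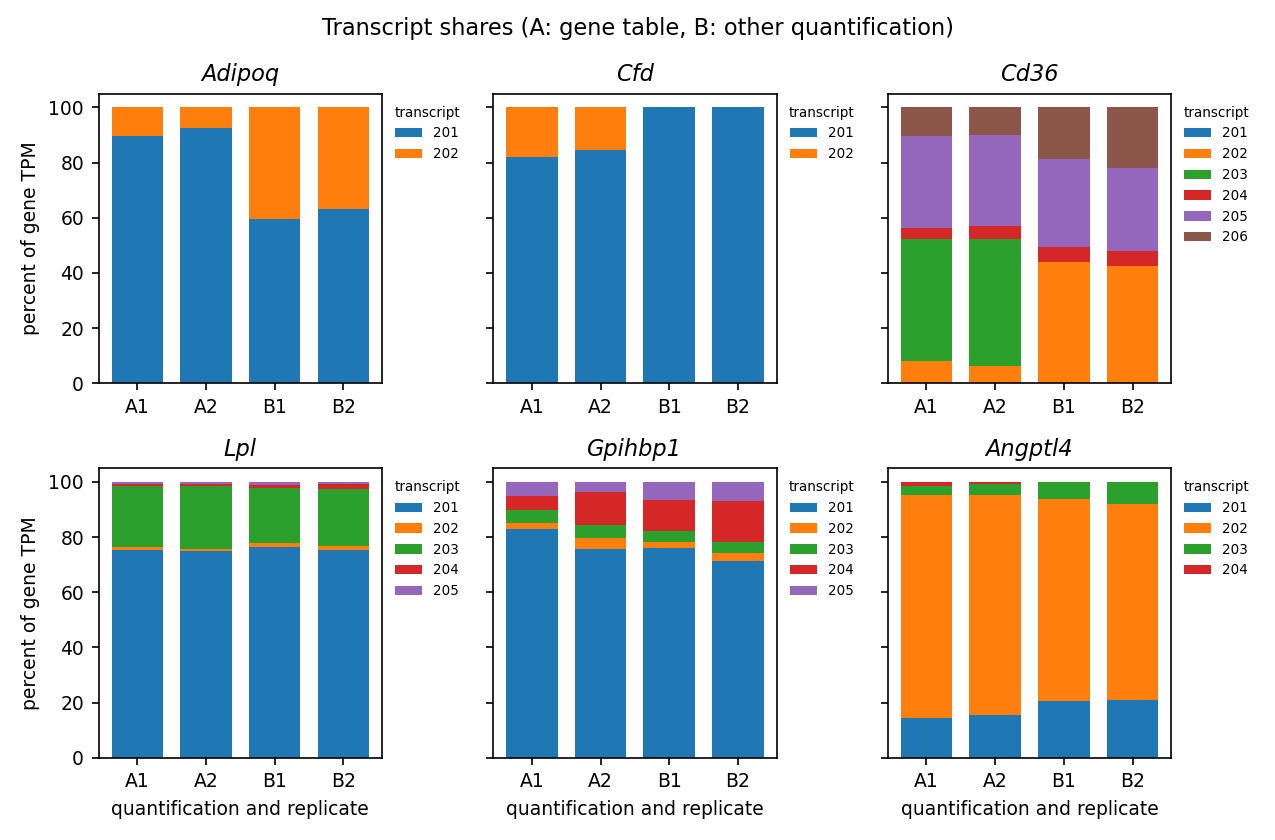
Percent of each gene's TPM in its annotated transcripts (colours), for the gene table's quantification (A) and the other quantification (B) in replicates 1 and 2. Replicates differ less than the quantifications for Cd36, Adipoq and Cfd. Angptl4-202 is the largest part of Angptl4 in all 4 bars.

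Fabp4 (chr3:10204088-10208576, minus strand) carried a further ambiguity, in its unspliced form. Fabp4-202 is 1 unspliced stretch that holds the 3593 nt of all 3 introns. It took 1.06% of the gene's TPM in replicate 1 and 0.96% in replicate 2, and 5.73% and 5.46% in the other quantification. In estimated counts these were 5.27% and 4.79% against 29.3% and 28.4%. The borders of intron 1, which runs from 10206123 to 10208438, are shown with the first and the last bases of the intron in capitals.
Fabp4 intron 1 start: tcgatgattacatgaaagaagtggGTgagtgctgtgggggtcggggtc
Fabp4 intron 1 end: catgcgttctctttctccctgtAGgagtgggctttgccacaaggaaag
Total RNA libraries hold nuclear RNA that is not yet spliced as well as mRNA, and how much of either lies behind these shares was not tested. Car3 (chr3:14863512-14872523, plus strand) gave 97.9% and 98.4% of its TPM to the coding transcript Car3-201, and Retn (chr8:3655770-3660110, plus strand) gave 100% and 98.6% to Retn-201. Lep lies on the plus strand of chromosome 6 from 29060220 to 29073877. No annotated gene overlapped any of the 10, so antisense or overlapping annotation does not share their reads.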

How the data were processed

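The authors deposited, per library, gene and transcript tables of 1 quantification and transcript values of another, on mm10 with annotation M21 per the file headers and notes. They hold expected counts, TPM, credibility bounds of TPM (a signal range) and the percent of a gene's TPM per transcript, deposited by the authors. Quantifier names, versions and strand settings: not given in the sources used here. Deposited bounds of abundant genes can lie just below the deposited TPM.

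Expected counts were rounded, TMM-scaled in edgeR 4.0.16 (R 4.3.3) and compared between the libraries with an exact two-sided binomial test (scipy 1.17.1), Benjamini-Hochberg adjusted over 18883 genes whose counts summed to 20 or more. Log2 ratios use a prior count of 0.5. With 1 group no quasi-likelihood contrast exists, and the smallest exact p that 2 libraries allow is 0.5. Intervals are exact 95% Clopper-Pearson intervals and cover counting error only. On simulated data of 18876 genes, the test recovered 92% of genes raised 3-fold and 84% of genes lowered 3-fold. The simulated counts varied by counting error only, so this recovery does not cover the wider spread between these libraries. Levels from the other quantification were compared over nuclear protein-coding genes. Ratios of paired genes use TPM within a library. A gene at 0 may have up to 3 counts, or 0.085 CPM in replicate 1 and 0.0907 CPM in replicate 2.

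The 10 genes, the lists and the tests were chosen with earlier results of these data known. Named genes are the 10, the 3 most abundant of each other list, each gene called, relatives above one of the 10, and paired genes. Actn3, Adipor1, Adrb3, Elovl3, Lepr and Retnlb were added after their values were seen. Some genes named by this rule are not reported here. Alternatives were total-count, DESeq2 1.42.0 and spike-in scaling, the other quantification, other filters, fold limits and prior counts, an edgeR likelihood ratio test, and leaving out either library. Sequences are from RefSeq (GRCm38.p6) and the M21 transcripts.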

Additional observations from a re-analysis of the deposited data

How the results depend on the processing

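All 10 genes were detected with a limit of 0.5 TPM, in the other quantification and in either library alone, and 8 with a limit of 10 TPM. The 1 call, Retn, held under total-count, DESeq2 and spike-in scaling, no minimum count, a 1.5-fold limit, a prior count of 2 and the other quantification (log2 1.52 to 1.66). The edgeR likelihood ratio test, which adds a spread between libraries (coefficient of variation 0.282), called 0 of the 10, with Retn at an adjusted p of 0.326. Its wider error model accounts for the loss. That spread was estimated from the same 2 libraries that the test compares, so differences between them are part of its error. The median log2 ratio of the 10 genes was 0.18 under total-count scaling and 0.25 to 0.29 otherwise. The sign of the Car3 ratio changed under total-count scaling, and Adipoq and Car3 were then within counting error. No other gene of the 10 changed sign under an alternative run. Without replicate 1 or replicate 2, each level is that of the other library. No paired analysis was possible because there is 1 group. Whether the replicates are separate animals limits every comparison between them.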
